A study of Mus musculus with 43 samples.

Results

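Muller glia span the retina from its inner to its outer surface and keep the surroundings of the neurons constant. They take up glutamate through the transporter *Slc1a3* (GLAST), turn it into glutamine with the synthetase *Glul*, let potassium and water pass through the channel *Kcnj10* (Kir4.1) and the water channel *Aqp4*, and recycle retinoids with the binding protein *Rlbp1* (CRALBP). Injury of the retina is known to be followed by reactive changes in these cells, in which homeostatic genes can fall and stress genes rise.

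The genes described are 10 homeostatic genes of Muller glia, *Rlbp1*, *Glul*, *Aqp4*, *Kcnj10*, *Slc1a3*, *Sox9*, *Clu*, *Car14*, *Dkk3* and *Apoe*, chosen by name. Each symbol matched 1 of the 54532 genes of the read-count table, and all 10 passed the filter on low counts, which kept 18173 genes. In this model a laser lesion in the retina of C57BL/6J mice 9 weeks old induces choroidal neovascularization (CNV), the growth of vessels from the choroid. Control animals received the lesion without supplement, and the other animals drank short-chain fatty acids (SCFA, with 67.5 mM sodium acetate, 40 mM sodium propionate and 25 mM sodium butyrate) from before the lesion until the retinas were taken. The g/L values stated beside these doses do not all match the mM values, so the doses of propionate and butyrate remain uncertain. Retinas of males and females were collected 3, 7 and 14 days post-lesion (dpl), which gave 12 groups, and each library pooled 2 retinas of different mice of a group. All groups were lasered, so no retina without a lesion was compared.

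Of the 43 libraries, 42 entered the comparisons, with 3 to 5 per group. The groups were male control (4, 3 and 3 libraries at 3, 7 and 14 dpl), male SCFA (3, 5 and 3), female control (3, 3 and 3) and female SCFA (4, 4 and 4). Library totals ran from 14826957 to 21507527 counts. The library labelled female SCFA 3 dpl replicate 2 was left out, because lens markers took 15.7% of its counts and at most 0.0606% in the other 42. The library labelled female control 7 dpl replicate 2 held 41.6 CPM of Y-linked transcripts, where the other 21 female libraries had 0 and males at least 135 CPM. The table's columns run through the groups once (31 libraries) and then again (12 libraries), and this column run was a term of every fit. Mitochondrial mRNAs took over 10% of the counts in 3 libraries, female SCFA 3 dpl replicate 3 (11.5%) and male SCFA 7 dpl replicates 1 (13.8%) and 3 (14.8%), and 2.50% to 9.26% in the other 39.

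Values are CPM, the share of a library's counts that fell on a gene, scaled to 1000000 counts, on the TMM scale of edgeR, a scaling that evens out the libraries' composition. A gene passed where edgeR's quasi-likelihood test gave a Benjamini-Hochberg adjusted p under 0.1 over all 18173 genes. In bulk retina, fewer cells of a type and less RNA per cell cannot be told apart. Several of the genes are also known from other cells of the eye, *Rlbp1* from the pigment epithelium, *Apoe* from microglia, *Aqp4* and *Slc1a3* from astrocytes, and *Clu* and *Dkk3* from neurons.

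The promoters of 6 of the 10 genes were found in RefSeq on GRCm38.p6, as 8 windows from 250 bases before to 50 bases after the start of a transcript, of which 3 belong to *Apoe*. Entries for *Aqp4*, *Sox9*, *Clu* and *Dkk3* were not used here. Printed are *Glul* at chr1:153899679-153899978 (plus strand) and *Rlbp1* at chr7:79386978-79387277 (minus strand), because their levels varied most alike, and *Kcnj10* at chr1:172340960-172341259 (plus strand) and *Slc1a3* at chr15:8710758-8711057 (minus strand), the next most alike pair. Capitals mark the letters GGGCGG, known as a GC box, and TATAAA on either strand.
Glul: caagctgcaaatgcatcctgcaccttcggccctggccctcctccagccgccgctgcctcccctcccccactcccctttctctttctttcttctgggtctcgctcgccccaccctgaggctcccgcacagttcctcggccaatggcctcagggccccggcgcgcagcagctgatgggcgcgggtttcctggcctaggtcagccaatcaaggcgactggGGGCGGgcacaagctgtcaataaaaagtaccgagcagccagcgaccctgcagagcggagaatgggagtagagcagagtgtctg
Rlbp1: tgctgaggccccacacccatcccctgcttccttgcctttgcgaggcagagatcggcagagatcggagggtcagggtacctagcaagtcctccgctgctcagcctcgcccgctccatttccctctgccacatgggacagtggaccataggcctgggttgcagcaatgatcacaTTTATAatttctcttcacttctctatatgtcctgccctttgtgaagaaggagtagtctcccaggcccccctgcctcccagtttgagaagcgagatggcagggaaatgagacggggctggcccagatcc
Kcnj10: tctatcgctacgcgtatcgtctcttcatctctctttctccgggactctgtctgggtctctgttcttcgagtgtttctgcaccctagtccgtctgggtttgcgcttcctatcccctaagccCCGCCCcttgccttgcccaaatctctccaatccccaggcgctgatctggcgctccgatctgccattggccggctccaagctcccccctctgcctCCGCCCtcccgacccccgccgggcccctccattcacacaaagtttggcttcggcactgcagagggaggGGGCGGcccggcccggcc
Slc1a3: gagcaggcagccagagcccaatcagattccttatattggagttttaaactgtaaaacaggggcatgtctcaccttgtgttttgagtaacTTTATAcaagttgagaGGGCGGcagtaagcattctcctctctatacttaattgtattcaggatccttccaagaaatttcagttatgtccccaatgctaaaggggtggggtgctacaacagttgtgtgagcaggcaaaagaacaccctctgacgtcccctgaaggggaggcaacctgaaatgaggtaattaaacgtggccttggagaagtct

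The letters GGGCGG stood once in the *Glul* window, once in that of *Slc1a3* and 3 times in that of *Kcnj10*, and in 35.7% of all 32851 promoters. TATAAA stood in the windows of *Rlbp1*, *Slc1a3* and *Apoe* and in 13.6% of all promoters. The paired genes thus did not share these letters in the first pair, and shared GGGCGG in the second. The SOX-type letters ACAATG (12.6% of all promoters) and the NFI-type letters TTGGCA (14.1%) stood only in a window of *Apoe* among the 6 genes, and the OTX-type letters TAATCC (7.06%) in windows of *Apoe* and *Car14*. No window of the 6 genes held AACAAT (10.7% of all promoters), the palindromic NFI site (0.0365%), TGACGTCA (1.79%) or TGANTCA (7.81%). Both strands were searched, and AACAAT and ACAATG can overlap in AACAATG.

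The 10 genes spanned a wide range of levels. Per kilobase of exons, *Glul* (median 832 CPM per kb over the 42 libraries) and *Apoe*, the lipid carrier (702), stood highest, above 99.8% of the tested genes in both cases. The secreted proteins *Dkk3*, a member of the dickkopf family (225), and *Clu*, the chaperone clusterin (214), came next, followed by *Rlbp1* (193). The membrane-bound carbonic anhydrase *Car14* (21.3), *Slc1a3* (17.6), *Aqp4* (16.9) and *Kcnj10* (10.3) were far lower, and the transcription factor *Sox9* (3.77) was the lowest, near the middle of the tested genes (52.8% lower). The order within the first 5 and of *Car14* and *Slc1a3* changed when the longest transcript was used in place of all exons, which put *Apoe* (1066 CPM per kb) above *Glul* (990.4). *Sox9* had the fewest counts, 191 to 513 per library, and so the largest relative counting error of the 10. *Car14* overlaps *Aph1a* on the other strand, whose median count was 563 beside 1021 for *Car14*, and the strand setting of the counts is not given in the sources used here.

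Between libraries each gene varied from 2.47-fold (*Dkk3*) to 3.48-fold (*Sox9*). The 12 groups, put in the order of their mean CPM, differed little from neighbour to neighbour. Of 110 pairs of neighbouring groups, 5 had means that differed by more than the larger of the 2 SDs. *Glul*, *Sox9*, *Slc1a3* and *Car14* had their highest group mean in female SCFA retinas at 3 dpl, and *Rlbp1* and *Aqp4* in male SCFA retinas at 7 dpl. The lowest group mean of *Glul*, *Aqp4* and *Sox9* was that of male controls at 7 dpl, and the lowest of *Kcnj10*, *Clu*, *Car14* and *Dkk3* was that of male SCFA retinas at 14 dpl. With the levels adjusted for the column run, *Car14* was highest in male controls at 14 dpl and *Dkk3* lowest in male SCFA retinas at 3 dpl. *Glul* for example ranged from 2175 CPM ± 264 (SD, n = 3) in male controls at 7 dpl to 4204 CPM ± 1052 (SD, n = 4) in female SCFA retinas at 3 dpl.

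**Figure D1:**
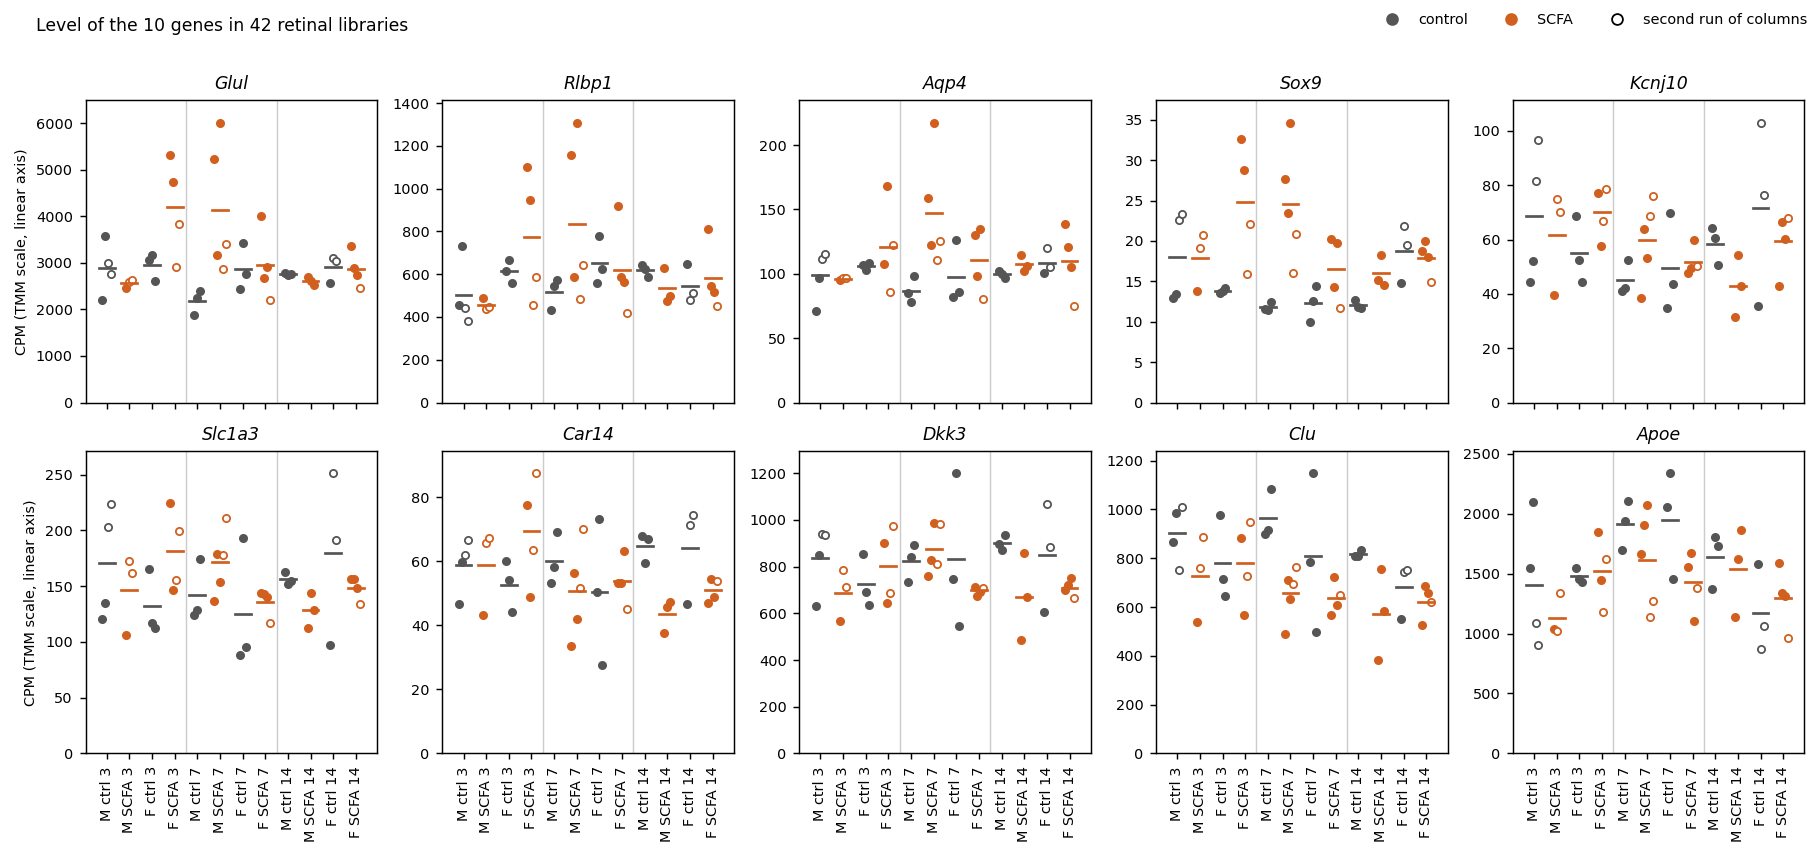
Each panel plots 1 of the 10 genes, with CPM on a linear axis against the 12 groups (M, male, F, female, ctrl, control, and the day after the lesion). Points are libraries, open for the second run, and bars are group means. *Glul*, *Rlbp1*, *Aqp4* and *Sox9* show their highest libraries in male SCFA retinas at 7 dpl and female SCFA retinas at 3 dpl, where *Glul* reached 6011 and 5319.8 CPM.

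The question of the SCFA groups was how the supplement alters the lasered retina in each sex. In males at 7 dpl, 5 of the 10 genes passed between 5 SCFA and 3 control libraries, where 23.8% of all tested genes did. *Glul*, *Sox9*, *Aqp4* and *Rlbp1* rose and *Clu* fell, where 13.5% of all tested genes rose and 10.3% fell. The median log2 fold change of the 10 genes was 0.16, and that of all tested genes was -0.03. For *Glul*, *Aqp4*, *Sox9* and *Clu* the libraries of the groups did not overlap, which held for 17.8% of all tested genes. The first run of columns holds all 3 controls, and the second holds SCFA replicates 4 and 5.

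*Glul* (GRCm38 chr1:153899944-153909723, plus strand), which makes glutamine from glutamate, had 1884, 2244 and 2398 CPM in the male controls at 7 dpl and 5223, 3169, 6011, 2869.8 and 3401 CPM in SCFA replicates 1 to 5. Every SCFA library lay above every control, and replicates 1 and 3 lay well above the others. The log2 fold change was 1.02 ± 0.19 (SE), with an adjusted p of 0.000462 by edgeR.

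*Sox9* (chr11:112782224-112787760, plus strand), a transcription factor that Muller glia keep from their progenitors, had 11.6, 11.5 and 12.4 CPM in controls and 27.6, 23.4, 34.6, 16.0 and 20.8 CPM with SCFA. The groups did not overlap, and SCFA replicates 1 and 3 were again the highest. *Sox9* rose by 1.09 ± 0.23 (SE) on the log2 scale, with an adjusted p of 0.00133 by edgeR.

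*Aqp4*, the water channel of the glial endfeet, had 84.8, 77.9 and 98.4 CPM in controls and 159, 122, 217, 111 and 125 CPM with SCFA. Here too all 5 SCFA libraries were above the controls. The log2 fold change was 0.83 ± 0.20 (SE, adjusted p of 0.00355 by edgeR).

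*Rlbp1* (chr7:79374870-79387048, minus strand), which carries retinaldehyde for the cone pigments, had 431, 546 and 574 CPM in controls and 1156, 586, 1308, 484 and 641 CPM with SCFA. The groups overlapped, since SCFA replicate 4, a library of the second run, lay between the controls. The log2 fold change with the column run in the fit was 0.89 ± 0.21 (SE, adjusted p of 0.00312 by edgeR). The call of *Rlbp1* was also lost without the column run in the fit.

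*Clu* (chr14:65968483-65981547, plus strand) moved in the other direction. Controls had 898, 917 and 1083 CPM, and the SCFA libraries had 488, 710.1, 634, 695 and 765 CPM, all lower. *Clu* fell by 0.63 ± 0.20 (SE) on the log2 scale, with an adjusted p of 0.0245 by edgeR. Without male control replicate 3 this call was lost, at an adjusted p of 0.127, as it was with the trend of each library with GC content removed.

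The 5 other genes did not pass at this day. *Car14* had a log2 fold change of -0.38 ± 0.20 (SE, adjusted p of 0.200 by edgeR), *Kcnj10* 0.18, *Slc1a3* 0.13, *Dkk3* 0.01 and *Apoe* -0.10. The potassium channel and the glutamate transporter thus had values near 0 where the glutamine synthetase rose. In *Car14* the lowest SCFA libraries were replicates 1 and 3, at 33.4 and 41.8 CPM, and the 3 others had 51.5 to 69.9 CPM beside 53.1 to 69.2 CPM in controls.

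Other measures moved with these values. SCFA replicates 1 and 3, the highest for *Glul*, *Rlbp1*, *Aqp4* and *Sox9* and the lowest for *Clu* and *Car14*, were the libraries with 13.8% and 14.8% mitochondrial mRNA, where the controls had 5.59% to 6.14%. Their 8 rod markers summed to 59079 and 48583 CPM, the lowest of the 42 libraries, beside 73803 to 76993 CPM in the controls and 77801 to 101421 CPM in the other 3 SCFA libraries. The 9 pigment epithelium markers summed to 191 to 439 CPM with SCFA and 487 to 594 CPM in controls, with none of the markers at 0. Gene by gene, 2 of the 9 passed lower (10.3% of all tested genes did), and the median log2 fold change was 0.01. The 10 microglia markers summed to 68.9 to 112 CPM with SCFA and 99.0 to 136 CPM in controls, with 2 of the 10 passing lower and a median of -0.15. The 6 vessel markers were higher with SCFA, with sums of 227 to 284 CPM beside 164 to 175 CPM in controls and no overlap. Of the 6, 2 passed higher, where 13.5% of all tested genes did. The part of rods, vessels, pigment epithelium, microglia and mitochondrial mRNA in these changes was not tested. Without the 3 libraries above 10% mitochondrial mRNA, 1 of the 10 genes passed, *Glul* at a log2 fold change of 0.65 (adjusted p of 0.0786 by edgeR), where 3.38% of all genes did. The other 4 kept their sign, with *Sox9* at 0.77 (adjusted p of 0.101), *Aqp4* at 0.51 (0.185), *Rlbp1* at 0.49 (0.249) and *Clu* at -0.49 (0.263). The libraries that the study lists for this comparison leave out SCFA replicates 1 and 3 and were fitted without the column run. In that fit *Glul* at 0.54, *Sox9* at 0.77, *Aqp4* at 0.46 and *Clu* at -0.41 passed (19.1% of all genes did). *Kcnj10* at 0.62 and *Slc1a3* at 0.41 also passed, and *Rlbp1* at 0.15 did not. SCFA replicates 4 and 5 are of the second run and the controls of the first, so that fit does not separate run from treatment. Between the second and the first run the log2 values were 0.53 for *Kcnj10*, 0.32 for *Slc1a3* and -0.63 for *Rlbp1*. In the first run of columns alone, the same 5 genes passed, with log2 fold changes of 1.13 for *Glul*, 1.25 for *Sox9*, 0.92 for *Aqp4*, 0.96 for *Rlbp1* and -0.68 for *Clu*. The SCFA libraries of that run are replicates 1 to 3, and 1 and 3 are those above 10% mitochondrial mRNA. The share of all genes that passed in that fit is not given here.

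**Figure D2:**
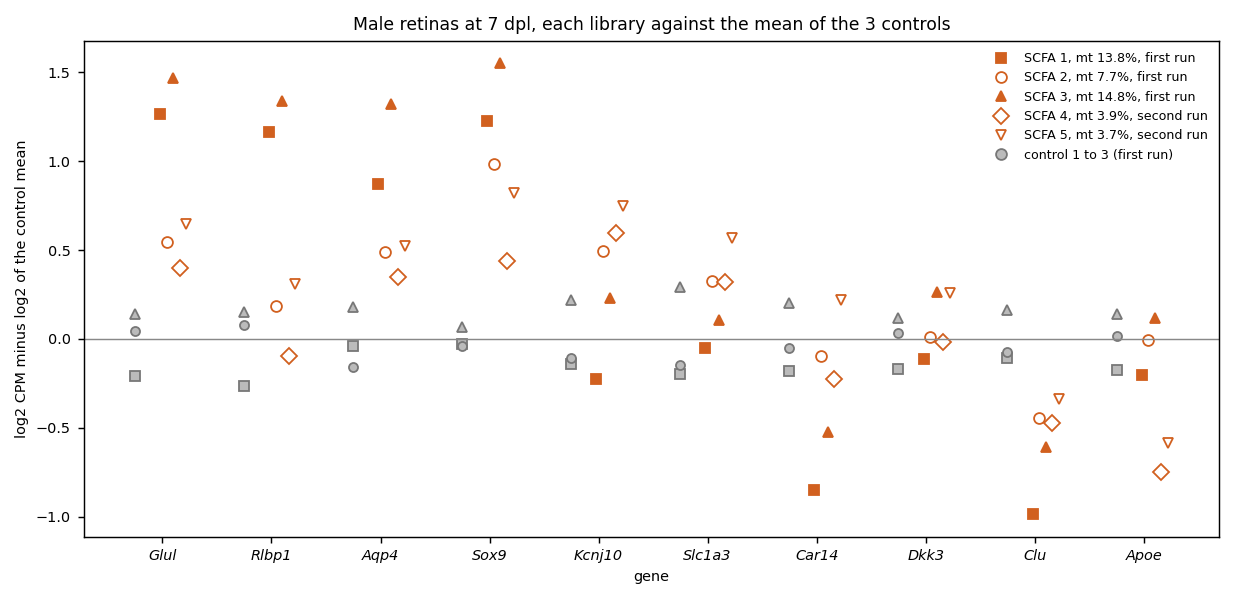
The log2 CPM of each male library at 7 dpl is plotted for the 10 genes relative to the log2 of the mean of the 3 controls, without adjustment for the column run. Grey points are controls, and orange points are the 5 SCFA libraries, filled where mitochondrial (mt) mRNA took over 10% of the counts. The 2 filled libraries are the highest for *Glul*, *Rlbp1*, *Aqp4* and *Sox9*, and all 5 lie above the controls for *Glul*, *Aqp4* and *Sox9* and below them for *Clu*.

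In females at 3 dpl, no gene of the 10 passed by edgeR (0.418% of all tested genes did), 3 had an unadjusted p under 0.05 and 2, *Glul* and *Sox9*, passed with DESeq2. *Sox9* was at 13.5, 13.8 and 14.2 CPM in controls and 32.6, 28.7, 16.0 and 22.1 CPM in SCFA replicates 1, 3, 4 and 5, without overlap (9.53% of all genes did not overlap). Its log2 fold change was 0.89 ± 0.24 (SE, adjusted p of 0.107 by edgeR). *Glul* had 3054, 3169 and 2615 CPM in controls and 5319.8, 4740.5, 2918 and 3839 CPM with SCFA, a log2 fold change of 0.64 ± 0.20 (SE, adjusted p of 0.150 by edgeR). *Rlbp1* was at 559 to 666 CPM in controls and at 1102, 946, 454 and 585 CPM with SCFA, a log2 fold change of 0.58. The 2 libraries highest in *Rlbp1* also had the highest sums of the 9 pigment epithelium markers, 837 and 768 CPM, beside 235 to 436 CPM in controls and 180 to 326 CPM in the other 2 SCFA libraries, and the part of the pigment epithelium in *Rlbp1* was not tested. Both of these belong to the first run of columns. Without SCFA replicate 4, *Glul* at 0.73 and *Sox9* at 1.02 passed by edgeR, and within the first run they passed at 0.80 and 1.18. Replicate 4 was the lowest SCFA library for both genes, and the first run holds only SCFA replicates 1 and 3, the 2 highest. The share of all genes that passed in these fits or with DESeq2 is not given here. Without the library high in mitochondrial mRNA, replicate 3, and the 2 such male libraries, the values were 0.55 for *Glul* (adjusted p of 0.385 by edgeR) and 0.78 for *Sox9* (0.351).

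The other SCFA comparisons within 1 sex and day held no gene of the 10 that passed by edgeR. At 3 dpl in males none of the 10 passed (0.0275% of all tested genes) or had an unadjusted p under 0.05, and the values lay between -0.36 for *Clu* and 0.01 for *Rlbp1*. In females at 7 dpl none passed (0.941% of all genes) or had an unadjusted p under 0.05 (17.1% of all genes), with *Sox9* at 0.45 ± 0.23 and *Clu* at -0.39 ± 0.21 (SE). In females at 14 dpl none passed, and no gene of the whole table did, with 579 of 18173 genes at an unadjusted p under 0.05 and 1 called by DESeq2. All 10 genes lay between -0.19 and 0.02 there. With only the libraries that the study lists for that comparison, 5 of the 10 passed (17.7% of all genes), *Car14*, *Dkk3*, *Kcnj10* and *Slc1a3* lower and *Apoe* higher. The column run was no term of that fit. Of the female 14 dpl libraries, 2 of 3 controls and 1 of 4 with SCFA are second-run. Run and treatment are therefore not separated there. Second-run libraries had higher *Car14* (0.30), *Kcnj10* (0.53) and *Slc1a3* (0.32) and lower *Apoe* (-0.45) on the log2 scale, and *Dkk3* (0.20) did not pass for run. DESeq2 also called none of the 10 in these 3 comparisons.

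In males at 14 dpl none of the 10 genes passed by edgeR (9.68% of all tested genes did) and 1, *Car14*, passed with DESeq2. For 6 of the 10 the libraries of the groups did not overlap, which 33.5% of all tested genes did not. An unadjusted p under 0.05 was seen for 3 of the 10 and for 22.5% of all tested genes. *Car14* had 68.0, 59.4 and 66.9 CPM in controls and 37.7, 45.8 and 47.4 CPM with SCFA, a log2 fold change of -0.57 ± 0.22 (SE, adjusted p of 0.122 by edgeR). *Clu* had 807, 809 and 835 CPM in controls and 382, 755 and 582 CPM with SCFA, a log2 fold change of -0.51 ± 0.22 (SE). *Dkk3* was at 895, 871 and 935 CPM and at 485, 857 and 668 CPM, a log2 fold change of -0.43 ± 0.20 (SE). SCFA replicate 1 was the lowest of the 6 libraries for *Clu*, *Dkk3*, *Car14*, *Kcnj10* and *Slc1a3*, while the controls lay close together. Markers of other cells were lower in the same libraries. The 9 pigment epithelium markers summed to 146 to 228 CPM with SCFA and 274 to 547 CPM in controls, with 1 of the 9 passing lower. The 10 microglia markers summed to 49.8 to 75.6 CPM and 89.1 to 92.1 CPM, with 2 of the 10 passing lower (9.68% of all tested genes passed in either direction). Neither sum overlapped, no marker was at 0, and their part in the values of the 10 genes was not tested. *Glul* had 2773, 2741 and 2751 CPM in controls and 2706, 2618 and 2522 CPM with SCFA, which did not overlap but differed by -0.07 on the log2 scale. *Sox9* lay higher with SCFA, at 15.2, 18.2 and 14.6 CPM beside 12.6, 11.8 and 11.7 CPM, with a log2 fold change of 0.41 ± 0.25 (SE). Without SCFA replicate 2, the highest SCFA library for both genes, *Clu* at -0.75 and *Dkk3* at -0.63 passed. The share of all genes that passed in that fit or with DESeq2 is not given here. In a fit of these 6 libraries alone, which are the libraries that the study lists for this comparison, 6 of the 10 genes passed (24.6% of all genes), *Car14*, *Clu*, *Dkk3*, *Kcnj10* and *Slc1a3* lower and *Sox9* higher.

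**Figure D3:**
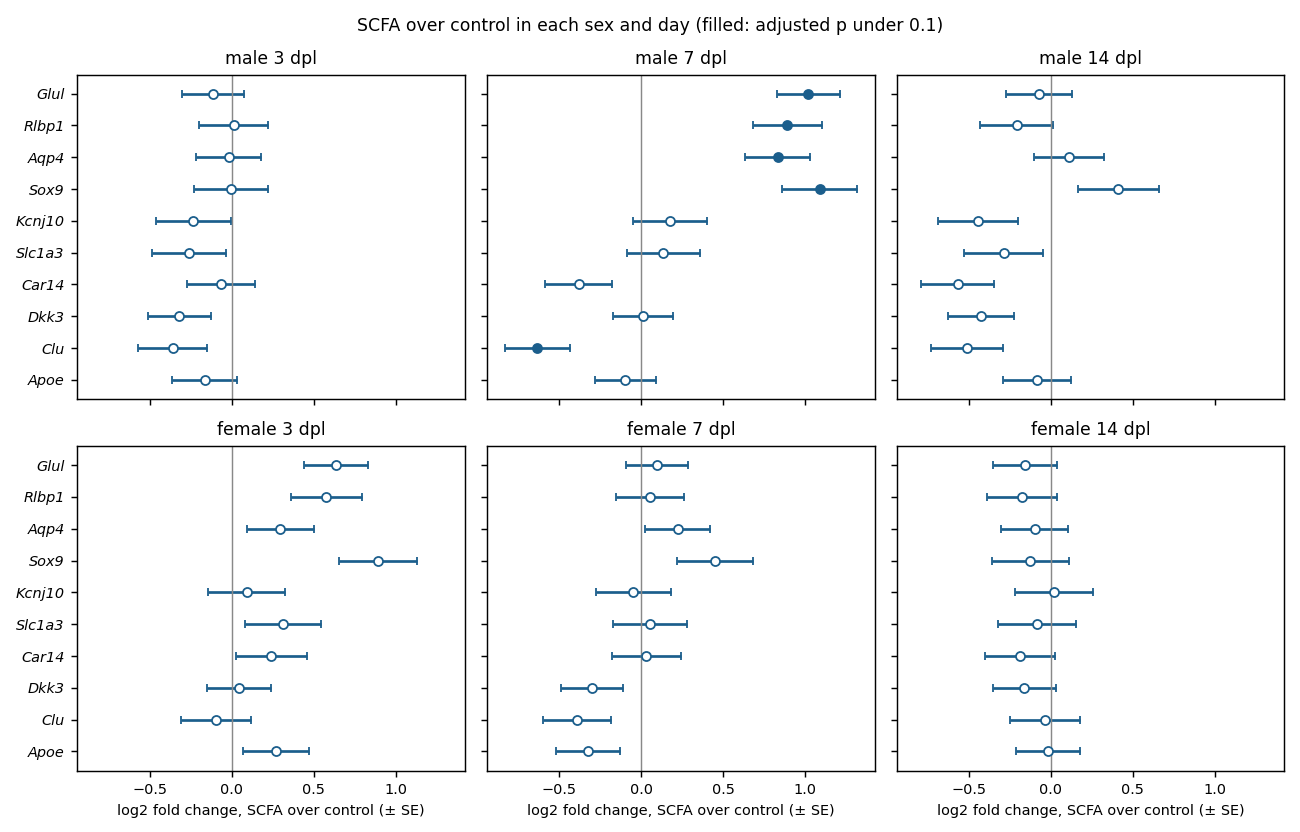
Log2 fold changes of SCFA over control with their standard errors are plotted for the 10 genes in each sex and day, filled where the adjusted p was under 0.1. The 5 filled points all belong to males at 7 dpl, where *Sox9* and *Glul* lie above 1, and in males at 14 dpl *Car14* and *Clu* lie lowest, at -0.57 and -0.51.

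Averaged over both sexes and the 3 days, 6 of the 10 genes passed for SCFA over control, where 36.7% of all tested genes did, 17.7% higher and 19.0% lower. This average includes the male libraries at 7 dpl, and its effects were smaller. *Sox9* rose by 0.45 ± 0.09 (SE) on the log2 scale, with an adjusted p of 0.000495 by edgeR. *Glul* rose by 0.23 ± 0.08 (adjusted p of 0.0224 by edgeR), *Aqp4* by 0.22 ± 0.08 (0.0377) and *Rlbp1* by 0.19 ± 0.09 (0.0953). *Clu* fell by 0.34 ± 0.09 (adjusted p of 0.00291 by edgeR) and *Dkk3* fell by 0.19 ± 0.08 (0.0608). *Car14*, *Kcnj10*, *Slc1a3* and *Apoe* had values between -0.16 and -0.02 and did not pass. *Sox9* and *Clu* passed under each of 11 alternative fits and without each of the 42 libraries in turn, with ranges over the alternatives of 0.38 to 0.64 and -0.37 to -0.23. The call of *Rlbp1* was lost without 1 library in 20 of 42 cases and that of *Dkk3* in 13 of 42. The call of *Dkk3* held in 5 of 11 alternative fits, and was lost with all 43 libraries, in the first run alone, without the column run, with a replicate block, with the GC trend removed and without the library with Y-linked transcripts. Without the 3 libraries high in mitochondrial mRNA, *Sox9* (0.38), *Clu* (-0.29) and *Dkk3* (-0.19) passed, and *Glul* (0.16), *Aqp4* (0.14) and *Rlbp1* (0.11) did not. Removing the trend of each library with GC content, *Aqp4*, which has the lowest GC content of the 10 (41.4%), was at 0.08 and did not pass.

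Whether males and females responded differently to SCFA was tested as an interaction. No gene of the 10 passed at 3 dpl (0.0% of all tested genes), 7 dpl (0.0165%) or 14 dpl (0.0%), by edgeR or by DESeq2. An unadjusted p under 0.05 was seen for 2 of the 10 at 3 dpl, 3 at 7 dpl and 0 at 14 dpl, among 1496, 1475 and 2034 of all tested genes. At 3 dpl the male response minus the female response was -0.90 ± 0.32 (SE) for *Sox9* and -0.75 ± 0.27 for *Glul* on the log2 scale. At 7 dpl it was 0.93 ± 0.26 for *Glul*, 0.84 ± 0.29 for *Rlbp1* and 0.61 ± 0.28 for *Aqp4*, with the opposite sign. The smallest adjusted p of these was 0.379, for *Glul* at 7 dpl. Without the filter on low counts, 2 of the 10 genes passed at 3 dpl and 2 at 7 dpl. The SE of *Glul* at 7 dpl was 0.21 in that fit and 0.26 with the filter, and the share of all genes that passed without it is not given here. A change that passed in males at 7 dpl was therefore not shown to differ from that in females.

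Among lasered controls, none of the 10 genes passed between males and females at 3 dpl (0.0495% of all tested genes), 7 dpl (0.0495%) or 14 dpl (6.28%) by edgeR, while DESeq2 called 1 of the 10, *Sox9* at 14 dpl. An unadjusted p under 0.05 was seen for *Sox9* at 14 dpl alone, where 19.6% of all tested genes had one. *Sox9* at 14 dpl also passed without the filter on low counts (adjusted p of 0.0117 by edgeR) and without the library with Y-linked transcripts (0.0994). With the libraries that the study lists for 7 dpl, *Clu* at 0.64 and *Slc1a3* at 0.72 passed, higher in males (6.59% of all genes passed). *Sox9* was at 12.6, 11.8 and 11.7 CPM in males and 14.8, 21.9 and 19.5 CPM in females, which did not overlap (21.3% of all genes did not), with a log2 fold change of -0.73 ± 0.26 (SE, adjusted p of 0.115 by edgeR). The second run holds female replicates 2 and 3 of this group, and the first holds all 3 males. At 7 dpl *Glul* did not overlap either (9.81% of all genes did not), with 1884 to 2398 CPM in males and 2438 to 3416 CPM in females and a log2 fold change of -0.40 ± 0.20 (SE). The highest of these females was replicate 2, the library with Y-linked transcripts, which also had the highest *Clu*, *Dkk3*, *Car14*, *Kcnj10*, *Slc1a3*, *Rlbp1*, *Aqp4* and *Apoe* of its group. Of the 6 oligodendrocyte markers, 3 passed between control sexes at 7 dpl, higher in males. Their part in the values of the 10 genes was not tested.

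Over time no gene of the 10 passed by edgeR in either treatment. In controls, 0 of 18173 genes passed from 3 to 7 dpl or from 7 to 14 dpl (0.0% in both), with 1293 and 1800 genes at an unadjusted p under 0.05, and 14 and 34 genes called by DESeq2. Of the 10, *Sox9* (-0.43 ± 0.17), *Glul* (-0.30 ± 0.14) and *Apoe* (0.33 ± 0.14) had an unadjusted p under 0.05 from 3 to 7 dpl, and *Apoe* alone (-0.35 ± 0.15, SE) from 7 to 14 dpl. With SCFA, none passed from 3 to 7 dpl (0.0% of all genes, with 955 at an unadjusted p under 0.05 and 0 called by DESeq2). From 7 to 14 dpl none of the 10 passed by edgeR (0.319% of all genes). *Rlbp1* at -0.46 ± 0.14 (SE) and *Glul* at -0.39 ± 0.13 had an unadjusted p under 0.05 (14.8% of all genes did) and passed with DESeq2. All 10 values were below 0 in that step, from -0.46 to -0.04. The male SCFA group at 7 dpl includes replicates 1 and 3, the libraries above 10% mitochondrial mRNA, which were the highest of that group for *Rlbp1* and *Glul*. *Rlbp1* also passed by edgeR without male SCFA replicate 1 at 14 dpl, and both passed without female SCFA replicate 1 at 14 dpl, female SCFA replicate 2 at 7 dpl or male SCFA replicate 2 at 7 dpl.

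**Figure D4:**
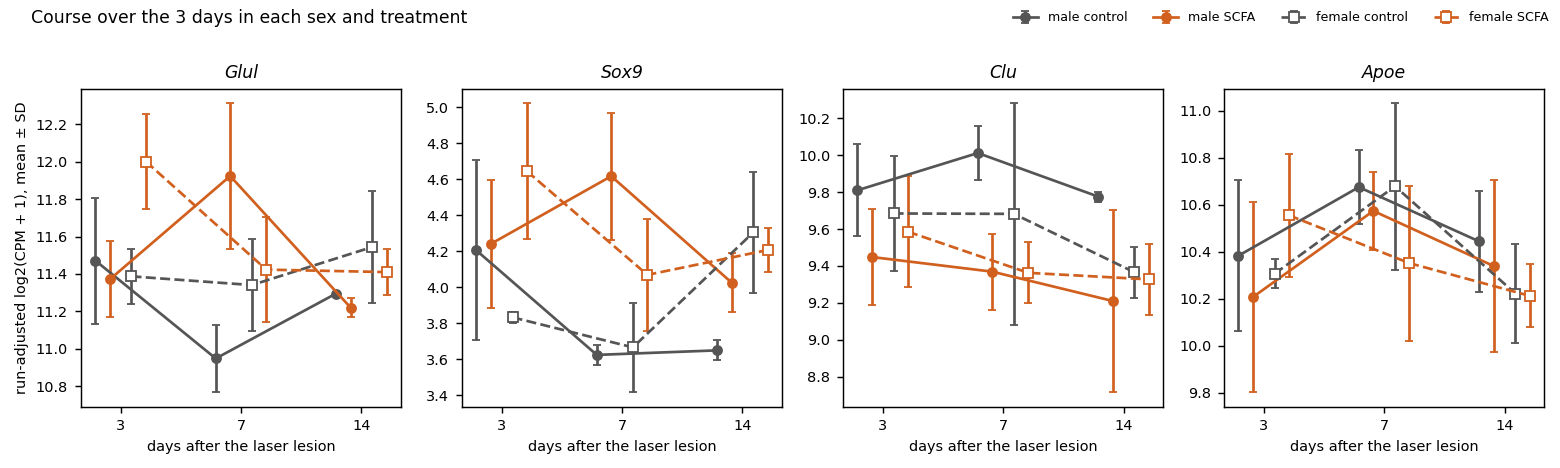
The mean and SD of log2(CPM + 1), adjusted for the column run, are plotted at 3, 7 and 14 dpl for *Glul*, *Sox9*, *Clu* and *Apoe* in males (filled circles) and females (open squares), in grey for controls and orange for SCFA. For *Glul* and *Sox9* the highest mean is that of females with SCFA at 3 dpl, followed by males with SCFA at 7 dpl, and the male controls at 7 dpl are the lowest.

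The column run also touched the 10 genes. Between the second and the first run 7 of the 10 genes passed by edgeR, where 53.3% of all tested genes did. *Rlbp1* was lower in the second run by a log2 value of -0.63 ± 0.11 (SE), as were *Apoe* (-0.45), *Glul* (-0.29) and *Aqp4* (-0.23), and *Kcnj10* (0.53), *Slc1a3* (0.32) and *Car14* (0.30) were higher. *Sox9* (-0.12), *Clu* (0.19) and *Dkk3* (0.20) did not pass. The CPM values above carry this difference wherever a group holds libraries of both runs, and what sets the runs apart is not given in the sources used here.

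Other genes of Muller glia were counted from a list of 22. In males at 7 dpl, 7 of the 22 rose with SCFA and 0 fell, with a median log2 fold change of 0.15, where 13.5% of all tested genes rose and 10.3% fell. The 4 with the smallest adjusted p were the transcription factors *Nfia* (1.18 ± 0.22, SE), *Sox2* (1.05 ± 0.22) and *Nfib* (0.80 ± 0.17) and the carbonic anhydrase *Car2* (0.74 ± 0.17). This comparison includes SCFA replicates 1 and 3, with 13.8% and 14.8% mitochondrial mRNA, which also enter the average and the step from 7 to 14 dpl with SCFA. Values of this list without the libraries high in mitochondrial mRNA are not given here. In the average over sexes and days 7 rose and 2 fell (17.7% and 19.0% of all tested genes). Those with the smallest adjusted p were the tetraspanin *Cd9* (0.31 ± 0.07), *Car2* (0.30 ± 0.07), *Nfia* (0.38 ± 0.09) and the polarity gene *Crb1* (0.24 ± 0.06). In males at 14 dpl 1 of the 22 rose, *Crb1* (0.44 ± 0.15), and 0 fell, where 9.68% of all tested genes passed in either direction. In controls at 14 dpl, *Nfia* (-0.92 ± 0.26) and *Sox2* (-0.73 ± 0.25) were lower in males than in females, 2 of the 22, where 6.28% of all tested genes passed. From 7 to 14 dpl with SCFA, *Cd9* fell by 0.53 ± 0.11, the antioxidant enzyme *Prdx6* by 0.46 ± 0.11 and the intermediate filament *Vim* by 0.40 ± 0.10 on the log2 scale. These were 3 of the 22, where 0.319% of all tested genes passed.

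Of 15 genes of reactive gliosis, 1 rose and 3 fell in males at 7 dpl, with a median log2 fold change of -0.22, where 13.5% of all tested genes rose and 10.3% fell. The endothelin *Edn2*, known from stressed photoreceptors, fell by 1.75 ± 0.42 (SE) on the log2 scale, the lipocalin *Lcn2* fell by 1.31 ± 0.35 and the growth factor *Fgf2* fell by 0.47 ± 0.20, while the hyaluronan receptor *Cd44* rose by 0.78 ± 0.23. These values too include SCFA replicates 1 and 3, and those without the libraries high in mitochondrial mRNA are not given here. In males at 14 dpl the filament *Nes* fell by 0.95 ± 0.31, 1 of the 15, where 9.68% of all tested genes passed. In the average *Lcn2*, the complement factor *C3* and *Nes* fell and *Cd44* rose, so 3 of the 15 fell where 19.0% of all tested genes did. *Gfap*, the filament by which reactive Muller glia are usually recognised, passed in none of these comparisons. In the other comparisons no gene of this list passed by edgeR.

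Across the 42 libraries the 10 genes did not vary as 1 block. The values here are log2(CPM + 1) adjusted for the column run, and the correlations describe libraries that share group, column run and composition. *Glul* and *Rlbp1* had the highest Pearson correlation (r = 0.93, Spearman's rho 0.89, r = 0.90 without the 2 farthest libraries), and with *Aqp4* and *Sox9* they formed a set whose 6 pairs had r between 0.67 and 0.93. *Kcnj10* and *Slc1a3* (r = 0.84, rho 0.83, r = 0.83 without the 2 farthest) formed another with *Clu*, *Car14* and *Dkk3*, whose 10 pairs had r between 0.45 and 0.84. The 20 pairs between these sets, which were drawn up after the correlations were seen, had r between -0.27 and 0.50, and *Apoe* correlated with the other 9 genes at -0.12 to 0.53, most with *Clu*. In deviations from the group means, r was 0.50 to 0.91 in the first set, 0.62 to 0.88 in the second and -0.05 to 0.57 between them. Without the 3 libraries high in mitochondrial mRNA the ranges were 0.53 to 0.89, 0.48 to 0.85 and -0.18 to 0.60. Both come from the libraries that gave the sets, so they are no independent test, and the ranges within and between the sets overlap. The glutamate transporter *Slc1a3* and the synthetase *Glul*, which act on the same transmitter, correlated at 0.48.

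**Figure D5:**
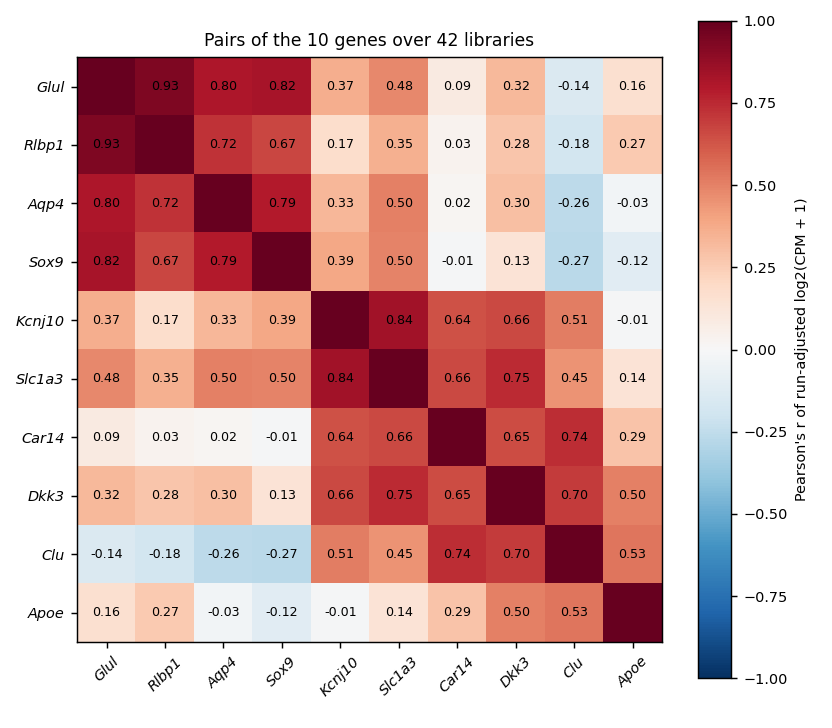
The matrix gives Pearson's r of log2(CPM + 1), adjusted for the column run, for each pair of the 10 genes over 42 libraries, from blue (-1) over white (0) to red (1). The block of *Glul*, *Rlbp1*, *Aqp4* and *Sox9* has values of 0.67 or more, the block from *Kcnj10* to *Clu* 0.45 or more, and *Clu* is negative with all 4 genes of the first block. In deviations from the group means, which are not plotted, those 4 values of *Clu* lay between -0.05 and 0.10.

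The genes outside the 10 whose pattern was most like the mean of the 10 z-scored genes over the 42 libraries were *Pon2* (Pearson's r 0.85, rho 0.83), *Plpp3* (0.85, 0.82), *Ncald* (0.84, 0.82), *Mlc1* (0.83, 0.82) and *Ccnd3* (0.83, 0.75). Without the 2 libraries farthest from the median of that mean, r was between 0.78 and 0.83 for these 5. *Mlc1* is also in the list of 22 other Muller glia genes.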

How the data were processed

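RNA was measured by bulk sequencing of 43 retinal libraries. The values are raw read counts per gene, deposited by the authors as 1 table, with Ensembl identifiers and no normalization. The submitters' processing notes name the build mm10 and DESeq2, and the aligner, the counter and its strand setting are not given in the sources used here. Groups came from the sample titles and library names, since the treatment tag of the labels reads control in all 43 samples, so every SCFA comparison rests on the titles and library names. Symbols, positions and lengths came from GENCODE M21 on GRCm38, which held 54495 of the 54532 genes. The median depth was 17683615 counts per library (14826957 to 21507527).

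Genes were filtered by group with filterByExpr, scaled by TMM and fitted in 1 model of 42 libraries with group and column run as terms, using edgeR 4.0.16 (quasi-likelihood test) in R 4.3.3. SEs were the log2 fold change divided by the square root of F. A gene passed at a Benjamini-Hochberg adjusted p under 0.1 over 18173 genes. Adjusted levels used log2(CPM + 1) and removeBatchEffect of limma 3.58.1. DESeq2 1.42.0 was an alternative. Tables and figures were made with Python 3.11.15, numpy 2.4.6, pandas 2.3.3, scipy 1.17.1 and matplotlib 3.10.9. Tested on simulated data for SCFA over control in males at 7 dpl with 18173 genes, edgeR recovered 99% of 100 genes changed by 1 on the log2 scale and 100% of 100 genes changed by 2. The simulation gave all genes the same dispersion, held no effect of the column run and changed no genes with low counts. It therefore does not measure the share of changes that the fit finds in these data.

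The 10 genes, the other gene lists and the comparisons were chosen with earlier results of these data known. Members were all named, and of the other lists the genes with the smallest adjusted p among those that passed were named, up to 4 per comparison. Alternatives were another tool, other filters and thresholds, other sets of libraries, a replicate block, leaving out each library in turn, and 3 that were chosen after seeing the data (without the 3 libraries above 10% mitochondrial mRNA, and with the trend with GC content or with transcript length removed by lowess with a span of 0.3). P-values measure the spread between libraries. Whether both eyes of a mouse entered different libraries is not given in the sources used here.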

Additional observations from a re-analysis of the deposited data

Results flagged for a closer look

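*Slc1a3* had 117 CPM in female SCFA replicate 4 at 7 dpl, the only library of the second run in its group, while the other 3 libraries had 140.3 to 144 CPM. Its gap to the nearest library was large for the range of the group, which was seen in 1 of 50 sets of a gene and a group of 4 or 5 libraries, and chance gives about 1 in 20. In female SCFA replicate 2 at 3 dpl, which entered no comparison, lens markers took 15.7% of the counts, above the highest share in a control library, 0.0371%.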

How the results depend on the processing

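Of 227 counts of passing genes among the 10 under alternatives that left out no single library, 199 were equal to the reported count or within 1.5 times of it, and 28 were not, in 11 of 17 comparisons. With DESeq2, 2 genes passed in females at 3 dpl, 1 in males at 14 dpl, 1 between control sexes at 14 dpl and 2 from 7 to 14 dpl with SCFA. Without the filter on low counts these were 3, 4, 1 and 2, and 2 passed in the interaction at 3 dpl and 2 at 7 dpl. With the libraries the study lists, fitted without the column run, 6 passed in males at 14 dpl, 5 in females at 14 dpl and 2 between control sexes at 7 dpl, and in females at 14 dpl *Kcnj10* turned to -0.64 and *Apoe* to 0.58. In the first run alone 2 passed in females at 3 dpl and 1 in females at 7 dpl, and with all 43 libraries 3 passed in females at 3 dpl. With a log2 fold change over 1 also required, 2 passed in males at 7 dpl and 0 in the average, and without the column run 3 passed in the average. Without the 3 libraries high in mitochondrial mRNA, 1 passed in males at 7 dpl, 1 in males at 14 dpl and 3 in the average. Without the library with Y-linked transcripts, 1 passed in females at 3 dpl, 2 in males at 14 dpl and 1 between control sexes at 14 dpl. With the trend with transcript length removed, 1 passed in females at 3 dpl. These counts stand without the share of all genes that passed under the same setting, so they are not a result about the 10 genes alone. The cause of these changes was not tested.

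Leaving out each library in turn gave 4 to 7 passing genes in the average, 4 to 5 in males at 7 dpl, 0 to 2 in females at 3 dpl, in males at 14 dpl and from 7 to 14 dpl with SCFA, 0 to 1 in females at 7 dpl, and 0 in the other 11 comparisons. The replicate numbers did not pair the libraries: over 17 pairs of same-numbered libraries in the 6 SCFA comparisons within 1 sex and day, the correlation ran from -0.29 to 0.41 with a mean of 0.013, and 5 were above 0.1. With a replicate block, 1 gene passed in females at 3 dpl, 1 in males at 14 dpl and 5 in males at 7 dpl. With the same block 5 passed in the average, and 0 in the other comparisons. The share of all tested genes that passed with the block or without each library is not given here. The counts of passing genes are therefore not a result about the homeostatic genes alone.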
